A study of Mus musculus with 12 samples.

Results

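The genes described here are the 5 mouse NF-kB subunit genes (Nfkb1, Nfkb2, Rel, Rela and Relb), 4 genes of the IkB family (Nfkbia, Nfkbib, Nfkbie and Nfkbiz) and Tnfaip3, which encodes A20. They were taken by name, as the subunit, IkB and A20 genes of the pathway, by a rule that uses no measured value but was written with earlier results of these data known. Each of the 10 symbols matched 1 Ensembl identifier among the 55487 genes of the count table, and all 10 were among the 14509 genes that passed the filter on low counts.

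NF-kB is a family of dimeric transcription factors that share a Rel homology domain for binding DNA and for pairing. RelA, c-Rel and RelB carry a transactivation domain, while Nfkb1 and Nfkb2 encode the precursors p105 and p100, which are processed to p50 and p52. In resting cells the dimers are held in the cytoplasm by IkB proteins or by the precursors. Signals from cytokine and Toll-like receptors switch on the IkB kinase, which marks IkB for degradation in the canonical pathway, whereas the kinase NIK drives processing of p100 in the non-canonical one. Several of the genes, Nfkbia and Tnfaip3 among them, are also textbook targets of NF-kB, and their products end the signal. In carcinoma cells the pathway is known for its links to inflammation and survival.

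RNA was sequenced from SCC7 cells, a wild-type mouse squamous carcinoma line, kept for 24 h in medium conditioned by macrophages derived from mouse bone marrow. The macrophages had been kept for 24 h in DMEM alone (M0 CM), with interferon-gamma at 20 ng/ml (M1 CM), with interleukin-4 at 20 ng/ml (M2 CM), or in 75% medium conditioned by SCC7 cells (TAM CM, from macrophages that the sample titles call SCC7-BMDM). There were 3 libraries in each of the 4 groups, 12 in all, and all of them came from this 1 line, with no group kept in medium free of macrophage products. The labels do not state whether interferon-gamma, interleukin-4 or SCC7 medium was still present in what the SCC7 cells received.

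Library totals ran from 18996937 to 22596630 counts. The labels do not tie the 3 libraries of a group to separate cultures, and p-values then measure only how far these samples differ among themselves, a spread that may be technical. No pair of libraries within a group was identical. Replicate 3 of M2 CM is labelled with a melanoma cell type, unlike the other 11 libraries. The summed level of the 7 melanocyte markers was 5.57 to 7.34 CPM (counts scaled to library size) over the M2 CM libraries, against 5.57 to 13.0 CPM over all 12. Nearly all of it was Mitf, with a mean of 6.37 CPM in M2 CM. There Tyrp1, Dct, Mlana and Sox10 had no counts, Tyr had 1 count and Pmel was at 0.177 CPM. Of 10 epithelial markers, Epcam had no counts, and Cdh1, Krt5 and Krt14 were under 0.1 CPM in every group mean, while Krt8 and Krt18 were present. The sum of the 10 epithelial markers moved with the medium, from 377 to 407 CPM in M0 CM to 182 to 185 in M1 CM, 693 to 772 under M2 CM and 99.2 to 110.0 under TAM CM (lowest and highest library). Nearly all of this sum was Krt8 and Krt18, and other markers of the list did not follow it: mean Jup was 15.8 CPM in M0 CM and 13.6 in M2 CM, Trp63 1.79 and 1.07, and Sfn 0.775 in M0 CM and 1.54 in TAM CM. Fibroblast markers, led by collagen genes, summed to 2505 to 2651 CPM in M0 CM and to 1148 to 1542 in the other media, a difference carried mainly by Col1a1, Col1a2 and Col3a1. Of the same list, Pdgfrb was also lower in the other media, with a mean of 40.7 CPM in M0 CM, against 29.7 under M1 CM, 7.71 under M2 CM and 13.4 under TAM CM. Pdgfra had a mean of 236 CPM in M0 CM, against 263 under M1 CM, 168 under M2 CM and 320 under TAM CM, and Dcn 2.82, 12.5, 4.10 and 16.9. Lum had no counts in any group, and Fap had counts only under M1 CM, at a mean of 0.046 CPM. The 12 macrophage markers summed to 23.3 to 24.5 CPM in M0 CM, against 34.9 to 40.8 under M1 CM, 22.7 to 25.1 under M2 CM and 41.7 to 51.2 under TAM CM. Cd14 made up most of this sum, with means of 17.3, 26.1, 15.9 and 40.9 CPM in M0, M1, M2 and TAM CM, while Cd68 was at 3.89, 6.99, 5.03 and 2.89. Ptprc, Adgre1, Itgam and Cx3cr1, which define macrophages and other leukocytes, were each at 0.102 CPM or less in every group mean, and Tyrobp had no counts. Others of the list were low but present. In M0, M1, M2 and TAM CM, Mrc1 was at 0.681, 2.60, 1.90 and 0.725 CPM and Aif1 at 0.512, 1.00, 0.175 and 0.649. Lyz2 was at 0.831, 0.422, 0.416 and 1.31 CPM and Csf1r at 0.303, 0.525, 0.371 and 0.140. The part of these shifts in marker genes in the results below was not tested.

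The promoters of these genes are shown first because Nfkb2, Rel, Nfkbia, Nfkbie and Tnfaip3 have a match to the kappaB motif in a window around the start of transcription. This motif is the sequence that NF-kB dimers bind. Windows from 250 bases before to 50 after the start were taken from RefSeq (build GRCm38.p6), which gave 10 windows for 7 of the 10 genes. Nfkb1, Relb and Nfkbiz were not among them. Sequences run 5′ to 3′ on the strand of the gene, and capitals mark matches to the kappaB motif on either strand.
Nfkb2, first start, chr19:46304487-46304786, plus strand: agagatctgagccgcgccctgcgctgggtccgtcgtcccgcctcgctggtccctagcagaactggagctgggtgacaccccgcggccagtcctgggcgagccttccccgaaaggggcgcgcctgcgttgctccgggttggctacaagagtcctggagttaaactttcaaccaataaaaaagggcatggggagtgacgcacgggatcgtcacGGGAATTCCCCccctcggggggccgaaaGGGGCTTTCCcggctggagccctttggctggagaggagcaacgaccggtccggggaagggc
Rel, chr11:23770920-23771219, minus strand: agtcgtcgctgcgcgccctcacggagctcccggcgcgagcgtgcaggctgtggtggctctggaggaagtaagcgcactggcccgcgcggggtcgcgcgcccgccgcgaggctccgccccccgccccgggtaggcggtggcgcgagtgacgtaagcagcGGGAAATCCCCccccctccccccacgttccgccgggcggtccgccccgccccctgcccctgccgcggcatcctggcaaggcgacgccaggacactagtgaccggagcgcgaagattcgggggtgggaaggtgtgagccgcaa
Nfkbia, chr12:55492598-55492897, minus strand: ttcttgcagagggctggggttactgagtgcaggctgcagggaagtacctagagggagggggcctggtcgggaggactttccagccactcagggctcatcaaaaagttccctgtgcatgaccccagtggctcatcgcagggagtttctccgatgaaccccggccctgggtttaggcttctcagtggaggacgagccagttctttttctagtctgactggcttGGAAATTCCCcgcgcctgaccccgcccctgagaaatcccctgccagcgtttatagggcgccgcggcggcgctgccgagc
Nfkbie, chr17:45555450-45555749, plus strand: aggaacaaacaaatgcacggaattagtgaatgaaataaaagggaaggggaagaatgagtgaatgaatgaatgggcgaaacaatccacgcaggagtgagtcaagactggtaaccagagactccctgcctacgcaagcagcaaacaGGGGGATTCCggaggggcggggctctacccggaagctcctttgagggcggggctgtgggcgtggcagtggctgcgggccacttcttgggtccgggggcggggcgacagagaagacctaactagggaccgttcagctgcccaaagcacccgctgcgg
Tnfaip3, first start, chr10:19015361-19015660, minus strand: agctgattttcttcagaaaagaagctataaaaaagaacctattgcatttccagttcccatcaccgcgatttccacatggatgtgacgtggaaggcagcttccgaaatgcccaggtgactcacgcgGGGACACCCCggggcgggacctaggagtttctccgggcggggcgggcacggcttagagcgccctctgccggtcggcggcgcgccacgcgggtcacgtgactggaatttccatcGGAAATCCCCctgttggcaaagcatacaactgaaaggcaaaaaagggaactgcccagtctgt

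Positions are counted from the start of transcription, with negative numbers before it. In the first Nfkb2 window the palindromic match GGGAATTCCC lay at -39 to -30, overlapped by a match shifted by 1 base, and GGGGCTTTCC lay at -11 to -2. Rel held GGGAAATCCC at -92 to -83, also overlapped by a match shifted by 1 base. The match of Nfkbia, on the minus strand and printed here as GGAAATTCCC, lay at -29 to -20. Nfkbie held GGGGGATTCC at -106 to -97, and Tnfaip3 held GGGACACCCC at -125 to -116 and GGAAATCCCC at -12 to -3. The other 2 Nfkb2 windows overlap and share GGGACTTTCC. In all, 7 of the 10 windows and 5 of the 7 genes had a match. Among all 32851 mouse windows of the same 300 bases 8.46% had one, as did 9.55% of their 27025 genes. The windows of Rela and Nfkbib and the second of Tnfaip3 held none. A match is a description of letters, and binding was not measured.

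**Figure D1:**
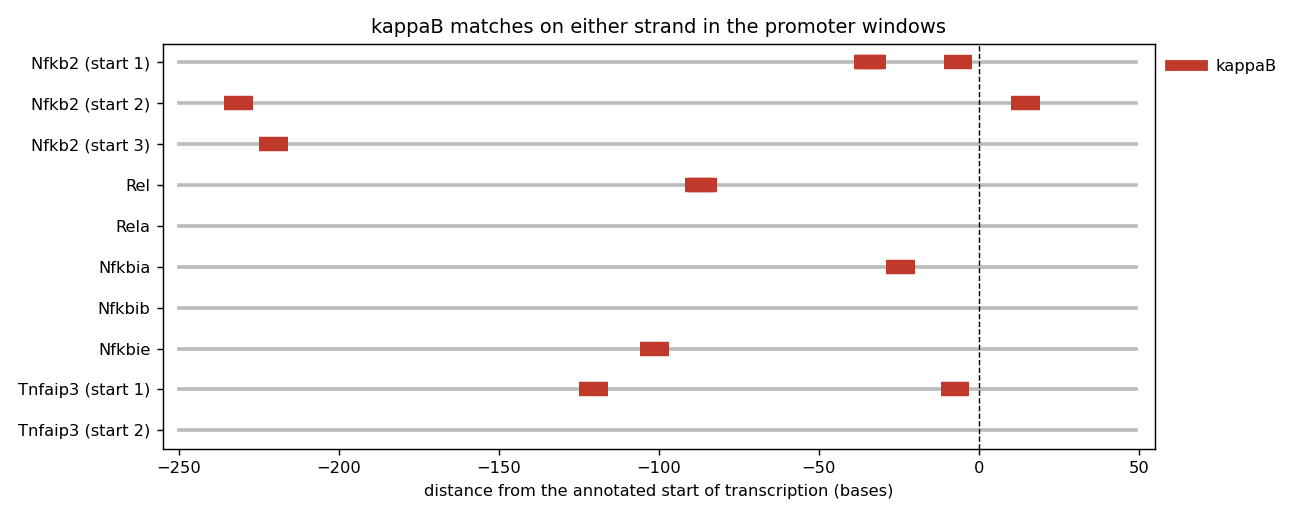
Positions of kappaB matches (coloured boxes) in the 10 RefSeq promoter windows of 7 NF-kB pathway genes, in bases from the annotated start of transcription (dashed line). Boxes appear in 7 of the windows, and those of Nfkbia and of the first Nfkb2 and Tnfaip3 starts include a match close before the start.

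Each conditioned medium gave the 10 genes its own pattern. In M1 CM, 3 of the 4 IkB family genes, Tnfaip3, Relb and Rela were at their highest. In M2 CM the largest difference from M0 CM was that of Nfkb1, at 3.39-fold, and Nfkbiz was the 1 gene of the 10 called lower. In TAM CM, Nfkbib, Relb and Rela were higher while Tnfaip3, Nfkbie, Nfkbia, Nfkb1, Nfkb2 and Rel were lower than in M0 CM. Levels of 1 gene across media are given as CPM on TMM-scaled library sizes, and a gene was called where its Benjamini-Hochberg adjusted p over all 14509 genes, by the quasi-likelihood test of edgeR, was under 0.05. The SE is the standard error of the log2 fold change. In RNA from a whole culture, a change in some of the cells and a smaller change in all of them cannot be told apart.

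**Figure D2:**
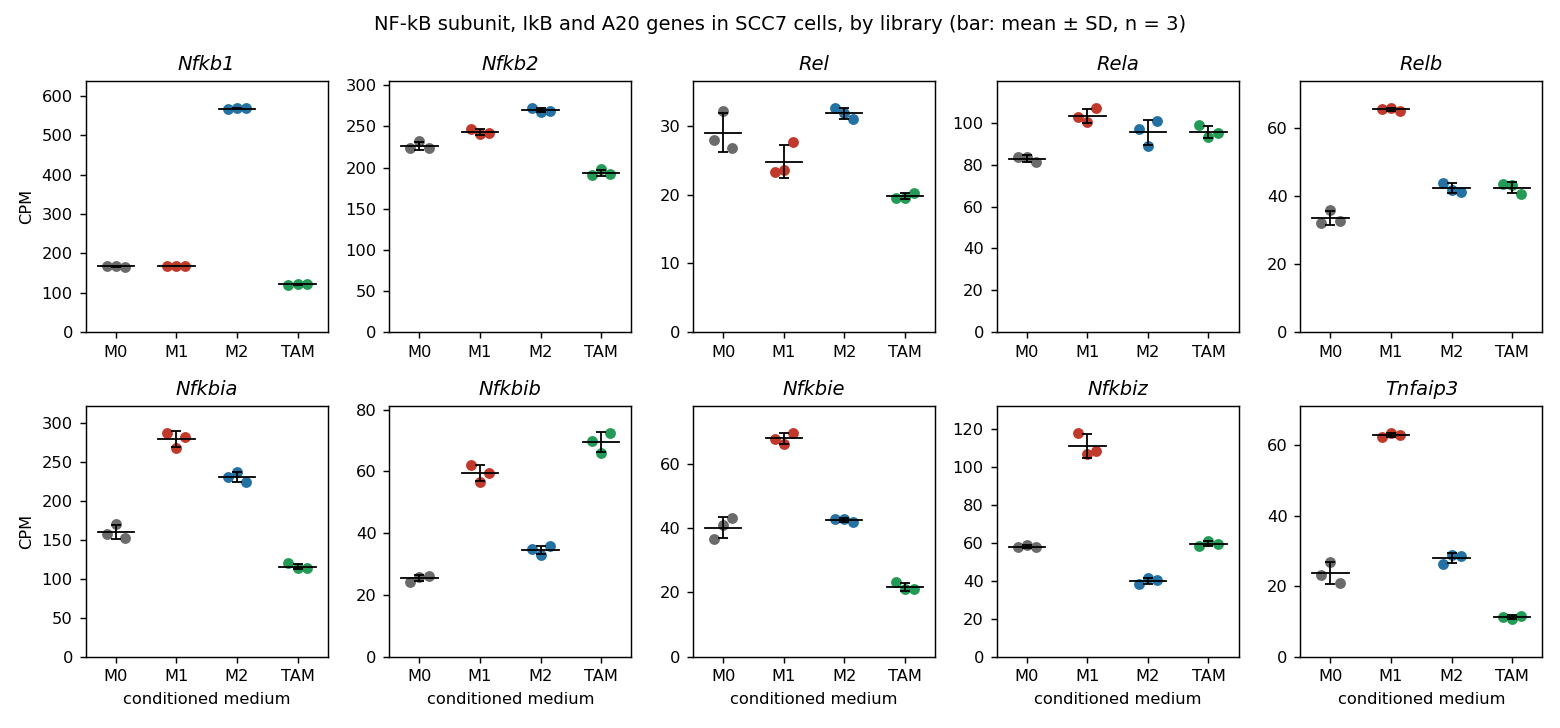
CPM of each NF-kB subunit, IkB and A20 gene in each of the 12 libraries, by conditioned medium, with the mean and SD of n = 3 libraries, each panel with its own linear axis from 0. The 3 M2 CM points of Nfkb1 sit between 566 and 569.5, above all other libraries, and the 3 TAM CM points of Tnfaip3 sit between 10.6 and 11.7, below all others.

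Among the subunit genes, Nfkb1 (chr3:135584655-135691547 in mm10, minus strand), which encodes p105 and p50, was at 167, 169 and 166 CPM in the 3 M0 CM libraries, 168, 169 and 168 in M1 CM, 566, 569 and 569.5 under M2 CM and 121, 121 and 123 under TAM CM. The M2 CM libraries lay far above the other 9, the TAM CM libraries lay below all others, and those of M0 CM and M1 CM overlapped. The mean rose from 167 ± 1.59 CPM (SD, n = 3) in M0 CM to 568 ± 1.77 in M2 CM, a log2 fold change of 1.76 (SE 0.03, adjusted p = 3.9e-41). Nfkb1 ranked 190 of 14509 genes by the size of its log2 fold change in that comparison. It fell 1.38-fold in TAM CM (log2 fold change -0.46, SE 0.03, adjusted p = 1.72e-17). M1 CM and M0 CM were not told apart (log2 fold change 0.01, SE 0.03, adjusted p = 0.903). Set directly against each other, M2 CM was 3.38-fold above M1 CM (adjusted p = 3.24e-42) and TAM CM 4.67-fold below M2 CM (adjusted p = 1.73e-45).

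Nfkb2 (chr19:46304320-46312385, plus strand), the gene of p100 and p52 in the non-canonical pathway, was at 224, 233 and 224 CPM in M0 CM, against 247, 241 and 242 under M1 CM, 273, 268 and 269 under M2 CM and 191, 198 and 192 under TAM CM. No 2 groups overlapped, and their order from low to high was TAM CM, M0 CM, M1 CM and M2 CM. Against M0 CM the log2 fold change was 0.10 (SE 0.03, adjusted p = 0.00642) in M1 CM, 0.25 (SE 0.03, adjusted p = 6.4e-09) in M2 CM and -0.23 (SE 0.03, adjusted p = 2.39e-08) in TAM CM. The M1 CM call was lost when library sizes were used with no scaling factors (log2 fold change 0.03, adjusted p = 0.376). Exons of Nfkb2 share 531 bases with AC114539.1 and 299 with Psd on the other strand, and without the strand setting of the counts reads of these genes cannot be told apart. Mean Psd was 29.6, 31.6, 32.7 and 27.6 CPM in M0, M1, M2 and TAM CM, the same order of media as Nfkb2. Mean AC114539.1 was 7.26, 6.31, 7.58 and 3.01 CPM. The part of such reads in the Nfkb2 counts was not tested.

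Of the 3 genes with a transactivation domain, Rel was lowest in TAM CM, while Rela and Relb were both lowest in M0 CM and highest in M1 CM. Rel (chr11:23736847-23770970, minus strand), which encodes c-Rel, was at 28.0, 32.2 and 26.8 CPM in M0 CM, against 23.3, 23.5 and 27.6 under M1 CM, 32.6, 31.8 and 31.0 under M2 CM and 19.5, 19.5 and 20.3 under TAM CM. The TAM CM libraries lay below all others, while those of M0 CM overlapped with both M1 CM and M2 CM. Rel fell 1.46-fold in TAM CM (log2 fold change -0.55, SE 0.07, adjusted p = 6.33e-09). In M1 CM it was called lower (log2 fold change -0.23, SE 0.07, adjusted p = 0.00692), a call that was lost without M0 CM replicate 2 (log2 fold change -0.15, adjusted p = 0.115) or without M1 CM replicate 1 (log2 fold change -0.18, adjusted p = 0.0574). For M2 CM against M0 CM the log2 fold change was 0.14 (SE 0.07, adjusted p = 0.12), and 0.21 (adjusted p = 0.0265) without M0 CM replicate 2. M2 CM was 1.29-fold above M1 CM, with no overlap (adjusted p = 2.23e-05).

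Rela (chr19:5637483-5648130, plus strand), the gene of p65, had the smallest range over the 12 libraries of the 10 genes (0.40 on the log2 scale). It was at 83.9, 83.7 and 81.1 CPM in M0 CM, against 103, 100.4 and 107 under M1 CM, 96.8, 89.0 and 101 under M2 CM and 98.8, 93.3 and 95.1 under TAM CM. The M0 CM libraries lay below the other 9, and the M2 CM libraries overlapped with those of M1 CM and TAM CM. The rise over M0 CM was 1.25-fold in M1 CM (log2 fold change 0.32, SE 0.04, adjusted p = 1.04e-08), 1.15-fold in M2 CM (log2 fold change 0.20, SE 0.04, adjusted p = 0.000111) and 1.15-fold in TAM CM (log2 fold change 0.21, SE 0.04, adjusted p = 3.56e-05). M1 CM was called above M2 CM (adjusted p = 0.0201) and TAM CM (adjusted p = 0.0187), but DESeq2's Wald test called neither (adjusted p = 0.0852 and 0.0886). Both calls were also lost without M1 CM replicate 3 (adjusted p = 0.0913 and 0.097), the first without M2 CM replicate 2 (adjusted p = 0.2) and the second without TAM CM replicate 2 or 3 (adjusted p = 0.0808 and 0.0566). M2 CM and TAM CM were not told apart (log2 fold change 0.00, SE 0.04, adjusted p = 0.974).

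Relb (chr7:19606217-19629438, minus strand), the partner of p52 in the non-canonical pathway, was at 32.1, 36.0 and 32.5 CPM in M0 CM, against 65.4, 65.8 and 65.1 under M1 CM, 43.9, 41.6 and 41.1 under M2 CM and 43.6, 43.1 and 40.6 under TAM CM. M1 CM stood above all others and M0 CM below, and M2 CM overlapped with TAM CM. The rise over M0 CM was 1.95-fold in M1 CM (log2 fold change 0.97, SE 0.05, adjusted p = 2.86e-21), 1.26-fold in M2 CM (adjusted p = 2.52e-06) and 1.27-fold in TAM CM (adjusted p = 4.9e-07). Relb in M1 CM was 1.55-fold above M2 CM (adjusted p = 6.46e-15) and 1.54-fold above TAM CM (adjusted p = 5.86e-15). M2 CM and TAM CM were not told apart (log2 fold change 0.01, SE 0.05, adjusted p = 0.915).

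All 4 IkB family genes rose in M1 CM, but they parted in the other media. Nfkbia (chr12:55489410-55492647, minus strand), which encodes IkB-alpha, the fast-resynthesised inhibitor of RelA dimers, was at 157, 171 and 152 CPM in M0 CM, against 287, 267 and 282 under M1 CM, 231, 237 and 224 under M2 CM and 119.9, 113 and 114 under TAM CM. No 2 groups overlapped, and their order was TAM CM, M0 CM, M2 CM and M1 CM. Nfkbia rose 1.74-fold in M1 CM (log2 fold change 0.80, SE 0.04, adjusted p = 1.19e-23) and 1.44-fold in M2 CM (log2 fold change 0.53, SE 0.04, adjusted p = 3.65e-16), and fell 1.38-fold in TAM CM (log2 fold change -0.47, SE 0.04, adjusted p = 8.94e-15). M1 CM was above M2 CM (1.21-fold, adjusted p = 9.77e-09), and TAM CM was 2.41-fold below M1 CM (adjusted p = 2.01e-31).

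Nfkbib (chr7:28758251-28767512, minus strand), which encodes IkB-beta, had a different order. Its level was 24.4, 25.8 and 26.2 CPM in M0 CM, against 62.0, 56.7 and 59.5 under M1 CM, 34.9, 33.1 and 35.7 under M2 CM and 69.8, 66.1 and 72.6 under TAM CM. No 2 groups overlapped, and TAM CM was the highest. The rise over M0 CM was 2.73-fold in TAM CM (log2 fold change 1.45, SE 0.06, adjusted p = 4.25e-28), 2.34-fold in M1 CM (log2 fold change 1.23, SE 0.06, adjusted p = 1.85e-24) and 1.36-fold in M2 CM (log2 fold change 0.45, SE 0.06, adjusted p = 2.6e-08). TAM CM was 1.17-fold above M1 CM (adjusted p = 0.000125). Exons of Nfkbib share 42 bases with Sirt2 and 314 with Ccer2 on the other strand. Sirt2 was at 44.9 to 66.3 CPM, highest in M1 CM, and Ccer2 had 0 to 3 counts per group.

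Nfkbie (chr17:45555703-45563169, plus strand), the gene of IkB-epsilon, was at 36.5, 40.8 and 43.1 CPM in M0 CM, against 67.8, 66.2 and 69.6 under M1 CM, 42.7, 42.8 and 41.9 under M2 CM and 23.1, 21.1 and 21.0 under TAM CM. M1 CM lay above and TAM CM below all other libraries, and M2 CM overlapped with M0 CM. It rose 1.69-fold in M1 CM (log2 fold change 0.76, SE 0.05, adjusted p = 5.22e-17) and fell 1.85-fold in TAM CM (log2 fold change -0.88, SE 0.06, adjusted p = 1.25e-17). In M2 CM the log2 fold change was 0.08 (SE 0.06, adjusted p = 0.254). TAM CM was 3.13-fold below M1 CM (adjusted p = 5.12e-29).

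Nfkbiz (chr16:55811375-55838899, minus strand) encodes IkB-zeta, a nuclear member of the family that acts on transcription together with p50. It was at 57.5, 58.8 and 57.5 CPM in M0 CM, against 118, 106 and 108 under M1 CM, 38.1, 41.4 and 40.3 under M2 CM and 58.1, 60.6 and 59.4 under TAM CM. M1 CM lay above and M2 CM below all other libraries, with M0 CM and TAM CM overlapping. Nfkbiz rose 1.91-fold in M1 CM (log2 fold change 0.94, SE 0.05, adjusted p = 1.46e-23) and fell 1.45-fold in M2 CM (log2 fold change -0.54, SE 0.05, adjusted p = 1.2e-12). For TAM CM the log2 fold change was 0.04 (SE 0.05, adjusted p = 0.505). M2 CM was 2.78-fold below M1 CM (adjusted p = 5.71e-31).

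Tnfaip3 (chr10:19000910-19015657, minus strand) encodes A20, a ubiquitin-editing enzyme that shuts off signalling upstream of the IkB kinase. It was at 23.2, 27.0 and 20.9 CPM in M0 CM, against 62.4, 63.6 and 62.8 under M1 CM, 26.4, 29.0 and 28.7 under M2 CM and 11.4, 10.6 and 11.7 under TAM CM. M1 CM lay above and TAM CM below all other libraries, and M2 CM overlapped with M0 CM. Tnfaip3 had the largest log2 fold change of the 10 genes in M1 CM, with a rise of 2.66-fold (log2 fold change 1.41, SE 0.07, adjusted p = 1.92e-24). It fell 2.11-fold in TAM CM (log2 fold change -1.08, SE 0.08, adjusted p = 1.19e-16). M1 CM and TAM CM were 5.62-fold apart (log2 fold change -2.49, SE 0.07, adjusted p = 9.92e-33). The M2 CM call over M0 CM (log2 fold change 0.24, SE 0.07, adjusted p = 0.00435) was lost without M0 CM replicate 3 (log2 fold change 0.16, adjusted p = 0.0943).

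Counted over the 10 genes, 8 rose and 1 fell in M1 CM against M0 CM, with a median log2 fold change of 0.78 against 0.01 over all genes. In the same comparison 53.4% of all genes were called, 27.7% as higher and 25.6% as lower. The 2 groups did not overlap for 8 of the 10 genes and for 58.8% of all genes. In M2 CM, 7 genes rose and 1 fell, with a median of 0.25 against -0.00. Of all genes 39.4% were called, 21.0% as higher and 18.5% as lower, and 7 of the 10 genes and 49.5% of all genes had no overlap. In TAM CM, 3 rose and 6 fell, with a median of -0.34 against 0.00. Of all genes 70.0% were called, 35.1% as higher and 34.9% as lower, and 9 of the 10 genes and 73.1% of all genes had no overlap. A change of at least 2-fold among the calls was seen for 2 genes in M1 CM (Nfkbib and Tnfaip3), 1 in M2 CM (Nfkb1) and 2 in TAM CM (Nfkbib and Tnfaip3), beside 8.55%, 3.25% and 19.0% of all genes. These 3 comparisons share the M0 CM libraries.

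With no scaling factors, the share of all calls that were higher moved from 52.0% to 41.0% in M1 CM and from 53.2% to 37.6% in M2 CM, while the 10 genes gave 7 higher and 1 lower in each. Called changes of the 10 genes kept their direction under that scaling. The 2 media with cytokine-treated macrophages and TAM CM were also set against each other. For M2 CM against M1 CM all 10 genes were called, 3 higher (Nfkb1, Nfkb2 and Rel) and 7 lower, beside 56.2% of all genes (27.8% higher, 28.4% lower). Of these, 9 had no overlap, beside 59.8% of all genes, and 3 were at least 2-fold apart (Nfkb1, Nfkbiz and Tnfaip3), beside 8.97%. For TAM CM against M1 CM all 10 were called, Nfkbib higher and 9 lower, beside 67.2% (32.8% higher, 34.4% lower). The libraries of those media did not overlap for any of the 10, beside 69.5% of all genes, and Nfkbia, Nfkbie and Tnfaip3 were at least 2-fold apart, beside 15.1%. For TAM CM against M2 CM 8 were called, Nfkbib and Nfkbiz higher and 6 lower, beside 68.4% (34.3% higher, 34.1% lower). The 8 had no overlap, beside 71.3% of all genes, and Nfkb1, Nfkbib and Tnfaip3 were at least 2-fold apart, beside 17.4%.

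**Figure D3:**
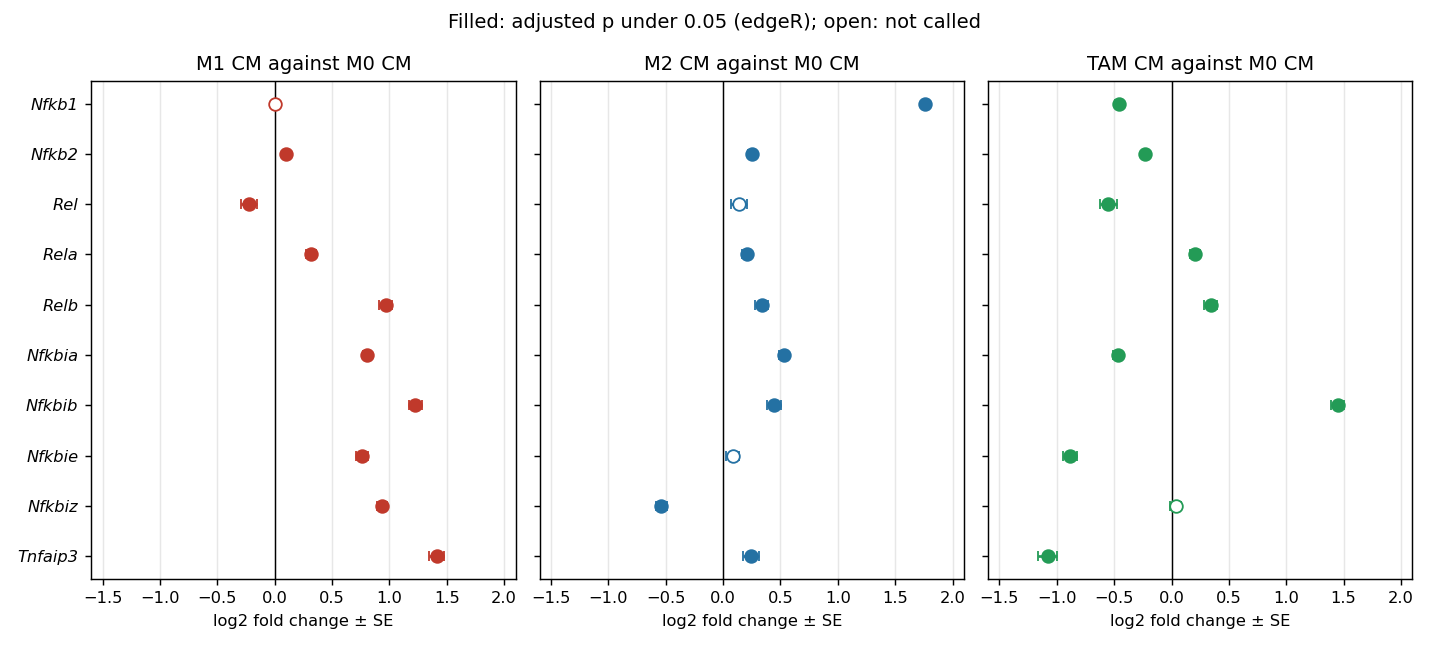
Log2 fold change against M0 CM (points, bars: SE) of the 10 genes in M1 CM, M2 CM and TAM CM, filled where the edgeR adjusted p is under 0.05. Points for Nfkb1 lie at 0.01, 1.76 and -0.46, and those for Tnfaip3 at 1.41, 0.24 and -1.08.

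Levels of different genes were compared as CPM per kilobase of exon. The length was that of all annotated exons of a gene together (12061 bases for Nfkb1, 3072 for Rela). The order of genes depends on this length. On this scale Nfkbia was the highest of the 10 in every medium, at 99.4, 173, 143 and 71.8 CPM per kb in M0, M1, M2 and TAM CM. Nfkb2 was the highest subunit gene, at 49.5, 53.1, 58.9 and 42.2 CPM per kb, and Rel the lowest, at 2.65 to 4.26. In M2 CM the mean of Nfkb1, 47.1 ± 0.146 CPM per kb (SD, n = 3), passed that of Rela, 31.1 ± 1.93, whereas in the other 3 media Rela was above Nfkb1. This crossing was not seen in CPM with no division by length. There Nfkb1 was above Rela in M0, M1, M2 and TAM CM (167, 168, 568 and 122 against 82.9, 103, 95.5 and 95.7). In M2 CM it was also above Nfkb2 (568 against 270). Tnfaip3 was the lowest of the 10 in M0 CM, M2 CM and TAM CM, down to 1.55 CPM per kb.

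As a share of the summed CPM per kb of the 5 subunit genes, Nfkb1 made up 13.5% ± 0.184 (SD, n = 3) in M0 CM, against 11.5% ± 0.170 under M1 CM, 30.9% ± 0.504 under M2 CM and 10.4% ± 0.190 under TAM CM. Rela took 26.2%, 27.8%, 20.4% and 32.1% in the same order, and Relb took 8.38%, 13.9%, 7.14% and 11.3%. The sum itself was 103 ± 2.38, 121 ± 1.41, 152 ± 2.28 and 97.1 ± 0.810 CPM per kb. Among the 4 IkB genes, Nfkbib made up 26.1% in TAM CM against 8.64% in M0 CM, and Nfkbia 58.5% against 73.1%. Their sum was 136 ± 6.23 CPM per kb in M0 CM, against 245 ± 9.14 under M1 CM, 181 ± 3.69 under M2 CM and 123 ± 2.96 under TAM CM. With no division by length, Nfkb1 made up 31.0%, 27.8%, 56.4% and 25.7% in M0, M1, M2 and TAM CM. Rela then made up 15.4%, 17.1%, 9.48% and 20.2%. Nfkbib was at 26.1% in TAM CM against 8.98% in M0 CM, and Nfkbia at 43.4% against 56.4%. Leaving length out moved 34 shares by at least the SD of their group, and 2 by less. The shares were not tested and are given as a description. They are shares of RNA and not of protein.

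**Figure D4:**
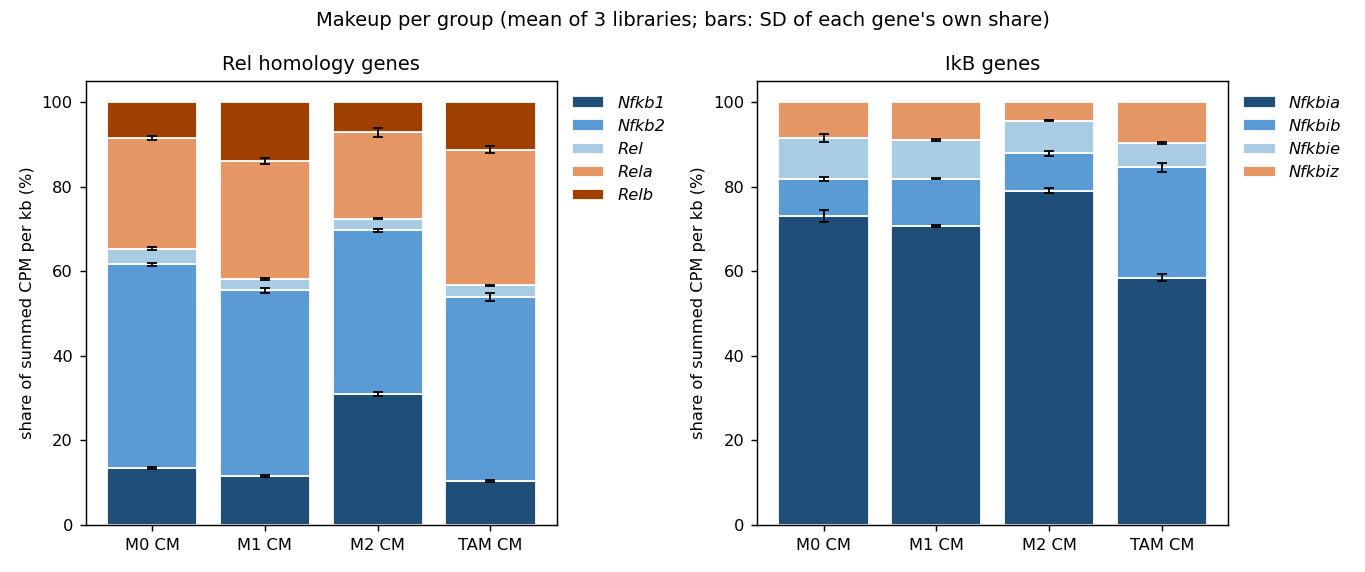
Share of each gene in the summed CPM per kb of the 5 subunit genes (left) and the 4 IkB genes (right), in percent, as the mean of 3 libraries with the SD of each share. The Nfkb1 segment is 30.9% in M2 CM and 10.4% to 13.5% in the other media, and the Nfkbib segment is 26.1% in TAM CM and 8.64% to 11.2% elsewhere.

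Upstream of these genes, the pathway was described with 5 lists of 116 genes, 99 of them tested. Of 14 ligands only 6 passed the filter. Tnf, the gene of tumour necrosis factor, had a mean of 0.111 CPM in M0 CM, against 0.657 under M1 CM, 0.208 under M2 CM and 1.14 under TAM CM, so that its calls in M1 CM (adjusted p = 0.000366) and TAM CM (adjusted p = 6.84e-07) rest on 7 counts over the 3 M0 CM libraries. Il1b had no counts in any group, which allows up to 3 counts per group, or 0.0499 CPM. In M1 CM 1 ligand rose and 0 fell (0 rose when only the 2 groups were fitted), in M2 CM 0 rose and 1 fell, and in TAM CM 3 rose and 2 fell. Called ligands were thus 16.7%, 16.7% and 83.3% of those tested, beside 53.4%, 39.4% and 70.0% of all genes in M1, M2 and TAM CM.

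Of 14 receptors tested, 5 rose and 5 fell in M1 CM, 5 and 4 in M2 CM, and 4 and 7 in TAM CM, with medians of -0.00, -0.02 and -0.36. Called receptors made up 71.4%, 64.3% and 78.6% of those tested, beside 53.4%, 39.4% and 70.0% of all genes, so the share in TAM CM was near that of all genes. Tlr2, a receptor for bacterial lipoproteins, rose from 30.1 ± 1.74 to 179 ± 0.981 CPM in M1 CM (adjusted p = 6.69e-42), and Tlr3, which senses double-stranded RNA, from 13.4 ± 0.998 to 52.3 ± 2.96 (adjusted p = 1.09e-27). Il1r1 and Il1rap, the 2 chains of the interleukin-1 receptor, rose in M2 CM, from 44.6 ± 1.99 to 75.9 ± 1.66 CPM (adjusted p = 3.34e-17) and from 28.1 ± 1.07 to 56.2 ± 2.51 (adjusted p = 1.79e-19). Il1rl1, the interleukin-33 receptor, was higher in all 3 media than in M0 CM, with log2 fold changes of 3.32, 1.31 and 2.47 (adjusted p = 6.47e-12, 3.84e-08 and 3.16e-11). Among receptors that fell, Tlr5, which senses flagellin, went from 11.4 ± 0.281 CPM in M0 CM to 4.01 ± 0.209 in TAM CM (adjusted p = 8.41e-15), and Tnfrsf9, which encodes 4-1BB, from 70.3 ± 2.55 to 27.9 ± 3.38 (adjusted p = 1.17e-22). In M1 CM and M2 CM their means were 4.79 and 6.77 CPM for Tlr5 and 61.2 and 54.0 for Tnfrsf9.

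Of 31 adaptors and kinases, 17 rose and 5 fell in M1 CM, 10 rose and 1 fell in M2 CM, and 11 rose and 15 fell in TAM CM, with medians of 0.15, 0.04 and -0.09. The called share was 71.0% in M1 CM, 35.5% in M2 CM, below the 39.4% of all genes, and 83.9% in TAM CM, beside 53.4% and 70.0% of all genes in the first and last. The 11 calls in M2 CM came down to 7 without M0 CM replicate 3. Among the subunits of the IkB kinase, Chuk rose most in TAM CM (63.5 ± 2.48 to 93.1 ± 2.15 CPM, adjusted p = 1.11e-15), and Ikbkg rose in M1 CM and TAM CM (37.8 to 53.4 and 50.7 CPM, adjusted p = 1.78e-10 and 6.68e-09). Ikbkb rose in TAM CM, from 75.9 ± 1.14 to 87.4 ± 3.06 CPM (adjusted p = 5.82e-05). Map3k14, which encodes NIK of the non-canonical pathway, was at 70.7 ± 0.532 CPM in M0 CM, against 37.2 ± 2.11 under M1 CM, 92.8 ± 0.545 under M2 CM and 27.8 ± 1.53 under TAM CM. It fell in M1 CM (log2 fold change -0.93, SE 0.05, adjusted p = 1.1e-21) and TAM CM (log2 fold change -1.34, SE 0.05, adjusted p = 7.35e-28) and rose in M2 CM (log2 fold change 0.39, SE 0.05, adjusted p = 6.55e-10). Traf3 and Birc2, whose products take part in the turnover of NIK, were at 129 ± 4.60 and 125 ± 2.91 CPM in M0 CM and at 107 ± 2.44 and 52.8 ± 3.83 in TAM CM (adjusted p = 7.07e-08 and 1.7e-29). Rnf31, a subunit of the linear ubiquitin ligase, rose from 28.7 ± 2.80 to 105 ± 2.25 CPM in M1 CM (adjusted p = 4.5e-33).

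Of the other IkB family genes and brakes, 18 of 20 were tested, and 10 rose and 6 fell in M1 CM, 7 and 3 in M2 CM, and 8 and 7 in TAM CM, with medians of 0.29, 0.06 and 0.05. These calls were 88.9%, 55.6% and 83.3% of the genes tested, beside 53.4%, 39.4% and 70.0% of all genes. Bcl3, a nuclear IkB protein that binds p50 and p52, rose in M1 CM and M2 CM (32.9 ± 1.31 to 42.3 ± 0.291 and 38.7 ± 1.89 CPM, adjusted p = 5.52e-07 and 0.000938) and fell in TAM CM (22.0 ± 0.447 CPM, adjusted p = 1.56e-11). Tnip1, a binding partner of A20, rose from 65.9 ± 0.209 to 111 ± 2.32 CPM in M1 CM (adjusted p = 5.67e-21). Cyld, a deubiquitinase, fell in M1 CM (118 ± 3.55 to 99.2 ± 2.13 CPM, adjusted p = 9.72e-07) and TAM CM (71.8 ± 5.01 CPM, adjusted p = 1.57e-20). Rnf11, a subunit of the A20 complex, rose in all 3 media, from 116 ± 2.62 CPM to 247 ± 17.5 in M1 CM, 240.4 ± 8.88 under M2 CM and 592 ± 8.89 under TAM CM (adjusted p = 7.16e-26, 1.28e-24 and 3.14e-38). Rnf11 and Tnfaip3 moved in opposite directions in TAM CM. Pdlim2, whose product promotes the degradation of nuclear RelA, fell in all 3 media, from 78.2 ± 3.40 CPM to 49.97 ± 2.15 in M1 CM, 63.9 ± 1.00 under M2 CM and 23.2 ± 1.30 under TAM CM (adjusted p = 4.34e-16, 1.84e-06 and 6.95e-32).

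Of 35 textbook NF-kB targets 30 were tested. In M1 CM 27 rose and 1 fell, with a median log2 fold change of 2.05, in M2 CM 15 rose and 5 fell, with a median of 0.15, and in TAM CM 16 rose and 9 fell, with a median of 0.53. Called targets made up 93.3%, 66.7% and 83.3% of those tested, beside 53.4%, 39.4% and 70.0% of all genes. Sod2, a mitochondrial superoxide dismutase, rose from 87.0 ± 1.59 to 375 ± 11.9 CPM in M1 CM (adjusted p = 3.03e-43). It was at 105 ± 1.37 CPM in M2 CM and 78.8 ± 1.59 in TAM CM. Its fall in TAM CM was called with each library left out in turn (log2 fold change -0.158 to -0.126, adjusted p = 0.00118 to 0.0103). Nos2, the inducible nitric oxide synthase and also a textbook target of interferon-gamma, rose from 6.74 ± 0.948 to 875 ± 43.0 CPM in M1 CM (adjusted p = 1.05e-26). Cxcl1, a neutrophil chemokine, rose in all 3 media, from 71.7 ± 1.42 CPM to 506 ± 45.6, 237 ± 11.9 and 270.4 ± 11.4 (adjusted p = 8.57e-13, 4.33e-10 and 2.34e-11). Ptgs2, the inducible cyclooxygenase, rose most in TAM CM, from 44.5 ± 5.28 to 513 ± 29.8 CPM (adjusted p = 7.94e-09). C3 and Ccl2 rose in M2 CM, from 130.2 ± 7.17 to 501 ± 6.83 CPM (adjusted p = 1.26e-21) and from 233 ± 10.7 to 803 ± 29.6 (adjusted p = 1.91e-06). Saa3, an acute-phase gene, rose from 0.440 ± 0.233 CPM in M0 CM to 19.2 ± 3.14 in M1 CM (adjusted p = 1.49e-29) and 26.6 ± 0.854 in TAM CM (adjusted p = 3.49e-32), and was at 0.129 ± 0.0312 CPM in M2 CM. Lcn2, the gene of lipocalin-2, rose from 0.704 ± 0.215 to 24.5 ± 1.27 CPM in M1 CM (adjusted p = 4.68e-31) and 18.2 ± 2.51 in TAM CM (adjusted p = 4.22e-29). Both were thus high in the medium where Nfkbia and Tnfaip3 were highest and in the one where they were lowest. Il6 had 1, 79, 5 and 2 counts over the libraries of M0, M1, M2 and TAM CM, too few for a fold. In M2 CM, Icam1 was called higher (0.667 ± 0.164 to 1.33 ± 0.560 CPM, adjusted p = 0.0222), with overlapping libraries. That call was lost with DESeq2 (adjusted p = 0.0773). Icam1 was also called higher in M1 CM (log2 fold change 1.07, adjusted p = 0.00844), but not without M0 CM replicate 3 (adjusted p = 0.0544). In TAM CM it was called lower with each library left out in turn (log2 fold change -1.78 to -1.46, adjusted p = 0.0027 to 0.0176).

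**Figure D5:**
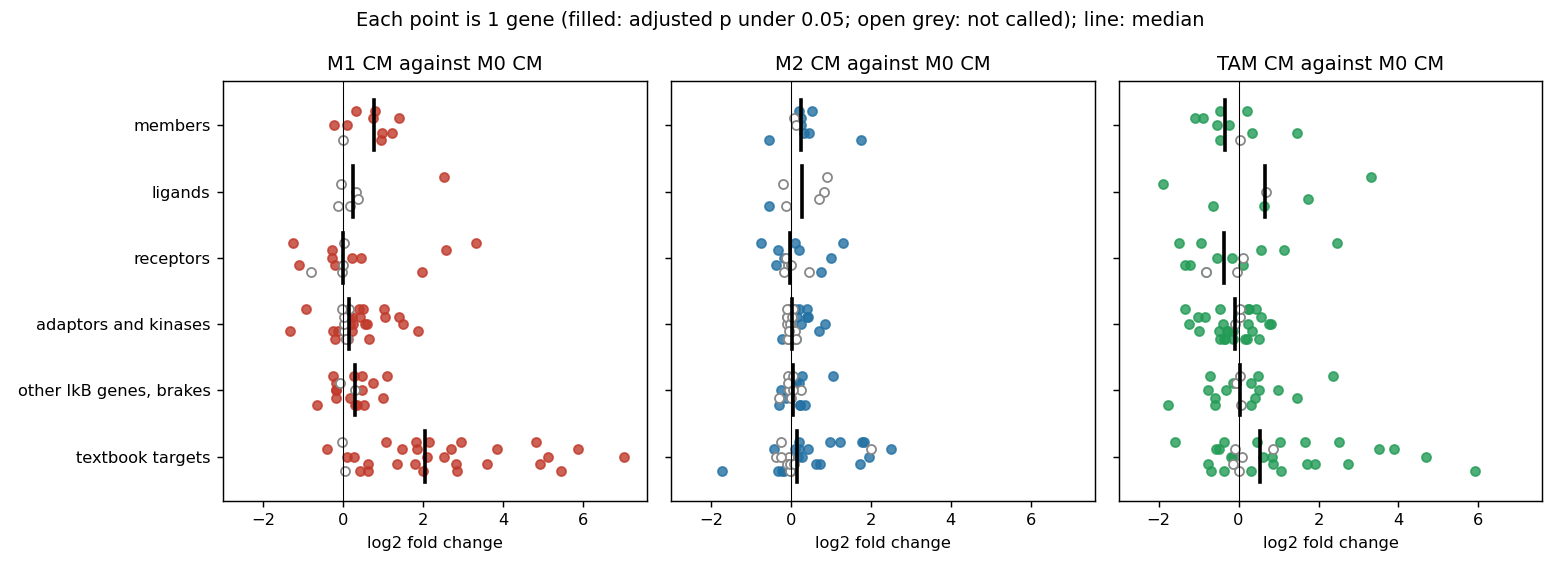
Log2 fold change against M0 CM of each tested gene (points, filled where called by edgeR, open where not) among the 10 subunit, IkB and A20 genes ("members") and 5 NF-kB pathway lists, with the median of each (black bar). In M1 CM the bars stand at 0.78 for the 10 genes and 2.05 for the targets, and in TAM CM at -0.34 and 0.53.

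The genes whose pattern over the 12 libraries lay closest to each of the 10 were found by the root mean square (RMS) difference of log2 CPM, each gene centred on its own mean, among 9744 candidates. Plau, the urokinase gene and a listed NF-kB target, was nearest to Nfkb1 (RMS difference 0.08), at 17.5, 17.2, 61.9 and 13.5 CPM in M0, M1, M2 and TAM CM. Chst11 (0.16) and Lox (0.17) followed. Nearest to Relb was Polr2g (0.06), to Nfkbia Cd47 (0.11), to Nfkbib Gclm (0.11), to Nfkbie Bak1 (0.11) and to Nfkbiz Plscr2 (0.13). Rab32 (0.17) and the interferon-induced Ifit2 (0.19) lay nearest to Tnfaip3, with Ifit2 at 45.2, 109, 44.1 and 23.4 CPM. Usp16 (0.05), Ywhae (0.07) and Adam17 (0.04) lay nearest to Nfkb2, Rel and Rela, whose log2 CPM ranged over less than 0.74. Among the 10 genes themselves the closest pair was Nfkb2 and Rel (0.16), followed by Nfkb2 and Rela (0.20) and Nfkbia and Nfkbie (0.21), and the farthest were Nfkb1 and Nfkbiz (1.25). Genes of small range lie close by this measure whatever their direction. Nfkb2 and Rel were called in opposite directions in M1 CM (log2 fold change 0.10 and -0.23), as were Nfkb2 and Rela in TAM CM (-0.23 and 0.21). The RMS differences are descriptions over 12 libraries in 4 groups, and libraries of a group share its medium.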

How the data were processed

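RNA of SCC7 cells was measured in 12 libraries, 3 per conditioned medium, grouped by their titles. The authors deposited raw read counts per Ensembl gene, with no scaling. Per the submitters' processing notes, HISAT2 2.0 and mm10 were used. How reads were counted, with which annotation and strand setting, was not given in the sources used here.

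Of 55487 genes, 55227 matched an identifier in GENCODE M21 (GRCm38), which gave symbols, mm10 coordinates and the exon length used for CPM per kb. The filter filterByExpr of edgeR 4.0.16 (in R 4.3.3) kept 14509 genes, which were scaled by TMM and fitted with robust glmQLFit over all 12 libraries, with a mean per group. The 6 comparisons were tested by glmQLFTest, Benjamini-Hochberg adjusted over all genes tested (threshold 0.05). The SE was taken as the log2 fold change divided by the root of the F statistic. The biological coefficient of variation was 3.65%, and 1 CPM is about 20 counts, so values under 1 CPM rest on few counts.

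The genes described, the pathway lists and the tests were chosen with earlier results of these data known. Beside the 10 genes, the rule took up to 3 called genes per list and comparison with M0 CM, with the largest log2 fold change and at least 2 CPM in the higher group, a panel of 16 genes, and for each of the 10 the 3 nearest patterns among genes of at least 5 CPM (prior count 2). A part of these is printed. Alternatives were DESeq2 1.42.0, its size factors in edgeR, no scaling factors, 2 other filters, fits restricted to both groups of a comparison, the replicate number as a block, and each library left out. For the shares, division by length was also left out. The steps were tested on simulated counts. Motifs in the proteins were not searched, and promoter motifs other than kappaB are not reported here. Figures were drawn with matplotlib 3.10.9.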

Additional observations from a re-analysis of the deposited data

How the results depend on the processing

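The number of the 10 genes called stayed within 8 to 9 for M1 CM against M0 CM, 7 to 9 for M2 CM, 9 for TAM CM, 9 to 10 for M2 CM against M1 CM, 9 to 10 for TAM CM against M1 CM and 8 for TAM CM against M2 CM, over the alternatives run and with each library left out. With no scaling factors, the log2 fold change changed sign only where it was not called and near 0: -0.0618 for Nfkb1 in M1 CM, -0.0604 for Nfkbiz in TAM CM, and -0.0403 for Rela and -0.0344 for Relb in TAM CM against M2 CM. Nfkb1 in M1 CM was also at -0.00325 with DESeq2 and -0.00514 with its size factors, and Rela in TAM CM against M2 CM at -0.000623 with no filter and -0.00405 when only those groups were fitted.

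With each library left out in turn, the uncalled log2 fold changes that passed 0 ran from -0.000574 to 0.0122 for Nfkb1 in M1 CM, from -0.0444 to 0.0445 for Rela and from -0.00848 to 0.0390 for Relb in TAM CM against M2 CM, from -0.0495 to 0.0210 for Il1r1 in M1 CM, from -0.105 to 0.00666 for Il1r1 in TAM CM and from -0.0701 to 0.0163 for Ikbkg in M2 CM. The cause was not tested.

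No clear pairing by the replicate numbers of the titles was seen. The correlation of deviations was -0.029 to 0.0507 over 18 same-numbered pairs and -0.0516 to 0.0515 over pairs with other numbers. Of 12 libraries, 3 were closest to their own number in every other group. With the replicate number as a block, 9, 8, 9, 10, 10 and 8 of the 10 genes were called in the 6 comparisons, as many as without it. All genes called were then 7806, 5821, 10184, 8219, 9785 and 9956. Without the third M2 CM library, the counts for its comparisons were 8, 10 and 8, beside 5124, 7601 and 9570 of all genes. Calls of the 10 genes that were lost under an alternative had log2 fold changes between -0.23 and 0.24. Depth limits Tnf, Il6 and Icam1, whose group means were at 1.41 CPM or less.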
